A study of Mus musculus with 6 samples.

Results

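Described here are 10 genes of the AP-1 and immediate early response, Fos, Fosb, Jun, Junb, Jund, Egr1, Ier2, Atf3, Dusp1 and Nr4a1, among 18193 genes with a probe set of their own on the array. A probe set was taken where the platform annotation named only that gene, which gave 12 probe sets: Jun and Jund had 2 each and the other genes 1 each. The arrays measured total RNA from LSK cells, the marrow cells without mature lineage markers but with Sca-1 and Kit, a fraction in which haematopoietic stem cells and early progenitors are found. The cells had been sorted from the marrow of mice aged 6 months, given as strain CD57BL/6, of 2 genotypes, WT and Tet1 KO, with 3 samples of each and 1 array per sample. Tet1 encodes an enzyme that oxidises 5-methylcytosine in DNA, and the sources used here give no details of the Tet1 KO allele. The titles number the samples as replicates but do not say that they are separate mice, so the p-values cover the spread among these samples, which may be technical in part. Sex-linked transcripts, given below, set replicate 3 of each genotype apart, so it came from other animals than replicates 1 and 2. Whether replicates 1 and 2 were separate mice is not known.

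AP-1 is a transcription factor made of a Fos family protein paired with a Jun family protein, or of Jun family proteins paired with each other. Immediate early genes are transcribed within minutes of a growth factor, a stress or the handling of cells, without new protein synthesis, by factors already in place such as SRF with its Elk partners and CREB. Their transcripts are short-lived, so their level at harvest reflects recent signalling. In haematopoietic stem cells, Egr1, Junb and Nr4a1 are known as restraints on proliferation.

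The 4 promoters that follow are examples. Fos, Fosb and Dusp1 had their highest value on the same array, Tet1 KO replicate 3, while Junb did not. Jun, and Jund at probe set 1449117_at, also had their highest value there, and their promoters are not printed. Each is the 150 bases before the annotated start, on the gene's strand, from RefSeq in build GRCm38.p6, and capitals mark TGACG or its reverse complement CGTCA, the core of the element that CREB and ATF proteins bind.
Fos (chr12:85473740-85473889, plus strand): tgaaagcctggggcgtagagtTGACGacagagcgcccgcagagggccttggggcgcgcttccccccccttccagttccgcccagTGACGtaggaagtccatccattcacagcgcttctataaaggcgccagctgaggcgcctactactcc
Fosb (chr7:19310046-19310195, minus strand): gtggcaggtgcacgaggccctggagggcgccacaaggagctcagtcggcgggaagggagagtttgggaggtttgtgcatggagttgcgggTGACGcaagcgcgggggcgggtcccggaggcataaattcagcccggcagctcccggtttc
Dusp1 (chr17:26508473-26508622, minus strand): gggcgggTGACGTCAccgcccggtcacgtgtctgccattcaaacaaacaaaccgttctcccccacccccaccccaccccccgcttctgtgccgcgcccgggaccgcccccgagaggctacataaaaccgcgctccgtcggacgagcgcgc
Junb (chr8:84978749-84978898, minus strand): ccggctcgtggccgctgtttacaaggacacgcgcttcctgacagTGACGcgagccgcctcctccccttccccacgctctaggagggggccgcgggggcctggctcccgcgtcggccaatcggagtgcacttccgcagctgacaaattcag

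A promoter sequence was matched for 8 of the 10 genes, all but Egr1 and Ier2, and the 250 bases before the start were searched on both strands. TGACG was present in 6 of the 8, Atf3, Dusp1, Fos, Fosb, Junb and Nr4a1, and in 17.8% of 32851 such windows over all genes. Jun and Jund did not have it, so the printed promoters are those with the marked letters. Whether TGACG goes with the array of highest value was not tested. The full element TGACGTCA, which contains TGACG, was present in Dusp1 and in 1.55% of all windows. Fos had the 6 letters TATAAA starting 33 bases before the start, and 12.4% of all windows held these letters at any position. Jun and Junb had CCAAT, against 33.8% of all windows. The AP-1 element TGANTCA was present in 0 of the 8 windows, against 6.75% of all, and so was the CArG box that SRF binds, against 1.47%. These matches describe letters in the windows only.

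Before the genes themselves, the arrays showed features that bear on every value below. All 4 Tet1 probe sets were lower in Tet1 KO, with differences between -1.68 and -0.93 (log2). WT and Tet1 KO did not overlap at any of them, and the limma adjusted p was 0.686 at each. Whether these probes lie in the altered part of the gene is not known here. Replicate 3 of each genotype differed from replicates 1 and 2 in sex-linked transcripts: a Xist probe set read 3.83 in WT replicate 3 and 3.65 in Tet1 KO replicate 3, against 11.58 to 12.08 on the other 4 arrays, and one for the Y-linked gene Kdm5d read 8.30 and 9.16 there, against 2.77 to 3.65. The 4 arrays with high Xist signal are called Xist-high and the remaining arrays Xist-low, so that the comparison of genotypes holds 2 against 2 Xist-high arrays and 1 against 1 Xist-low array. Tet1 KO replicate 2 held the highest value of the 6 arrays at 35.9% of all probe sets and the lowest at 24.6%, more often than any other array. As a guide to background, the brightest of 27 bacterial control probe sets averaged 4.39 over the arrays (log2). Of 10 markers that define LSK cells and their stem and progenitor subsets, 8 were measured, by 16 probe sets with a mean level of 7.88 to 8.15 per array, and 1 of the 16 lay under that background in both groups. Ly6a, which encodes Sca-1, was among those not matched.

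No probe set of these genes passed the test of Tet1 KO against WT, and at all but Junb the arrays of 1 genotype spread further than the distance between both means. Of the 12 probe sets, 9 were higher on average in Tet1 KO and 3 lower, where 57.1% of all 45037 probe sets were higher, and the median difference was 0.18, against 0.06 over all probe sets (log2). Leaving out 1 array moved that median, to 0.018 with Tet1 KO replicate 3 dropped and up to 0.36 with Tet1 KO replicate 1 dropped. In limma with Benjamini-Hochberg adjustment over all probe sets, 0 of 12 passed an adjusted p of 0.05, as did 0% of all, and the adjusted p of the 12 lay between 0.686 and 0.933. At an unadjusted p under 0.05, 1 of 12, Junb, was higher and 0 were lower, where 3.23% of all were higher and 3.58% lower. Junb was also the only one of the 12 at which both groups did not overlap, where 9.96% of all probe sets lay apart on the higher side and 6.29% on the lower. The range over the 6 arrays had a median of 1.27 over the 12 probe sets and of 0.78 over all probe sets. For a single gene, the smallest p that an exact two-sided permutation test can give with these group sizes is 0.1.

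**Figure D1:**
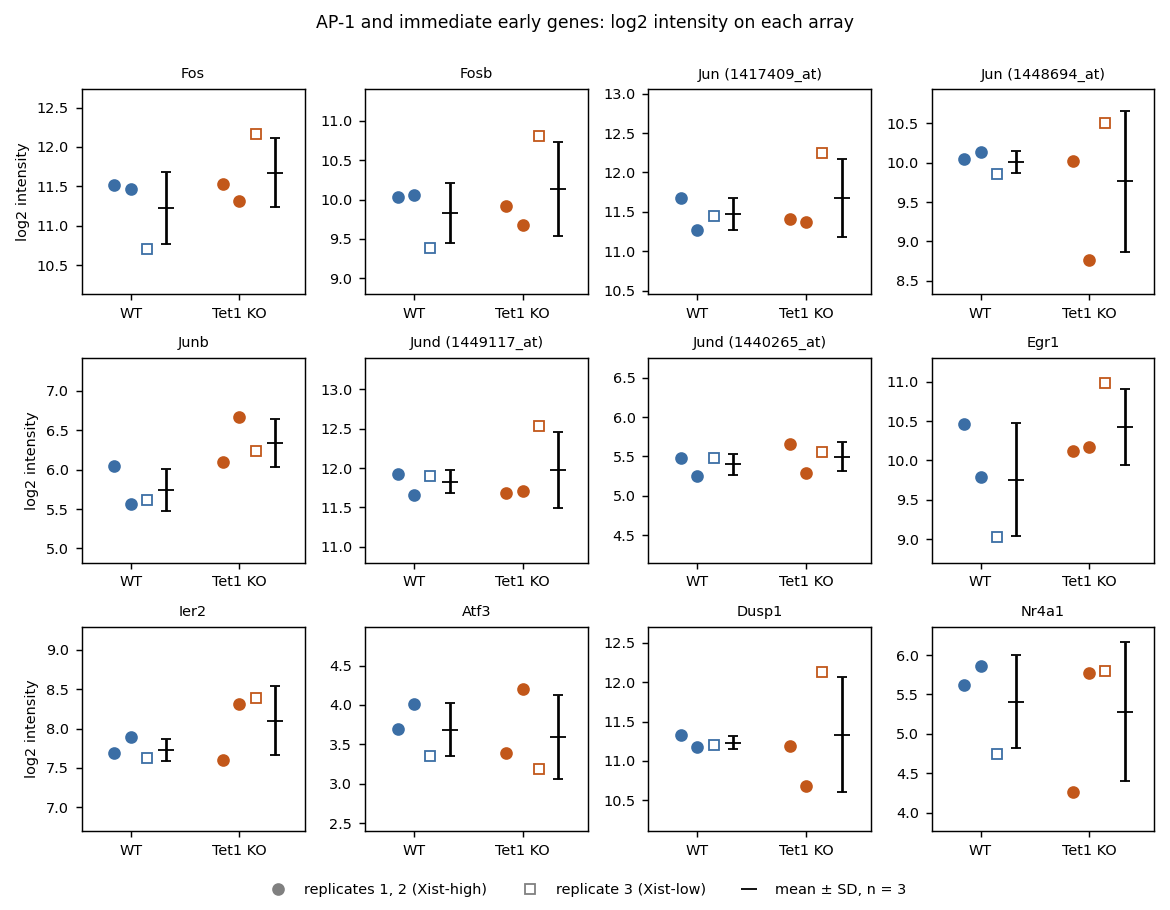
Log2 intensity of each of the 12 probe sets on the 3 WT and 3 Tet1 KO arrays, with the mean ± SD beside each group and every panel spanning the same height in log2 units. Open squares mark replicate 3, the Xist-low array of each genotype; Tet1 KO replicate 3 is the highest of the 6 arrays at 8 of the 12 probe sets, and WT replicate 3 is the lowest for Fos, Fosb and Egr1.

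Fos (probe set 1423100_at) encodes the founding member of the Fos family. It read 11.52, 11.47 and 10.70 on WT replicates 1, 2 and 3 and 11.53, 11.32 and 12.17 on Tet1 KO replicates 1, 2 and 3 (log2). Replicates 1 and 2 of both genotypes lay close together, while replicate 3 was the lowest array of all in WT and the highest of all in Tet1 KO. The means were 11.23 ± 0.46 and 11.67 ± 0.44 (SD, n = 3 each), so that Tet1 KO was 0.44 higher, with a 95% interval from -0.31 to 1.19 and a limma adjusted p of 0.693. It was 0.18 when WT replicate 3 was left out and 0.20 when Tet1 KO replicate 3 was. In a bulk sample, fewer cells with a transcript and less transcript per cell cannot be told apart.

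Fosb (1422134_at), a close relative of Fos that also pairs with Jun proteins, repeated that pattern. It read 10.04, 10.06 and 9.39 in WT and 9.92, 9.68 and 10.81 in Tet1 KO (log2). The groups overlapped, and both Xist-high Tet1 KO arrays lay below both Xist-high WT arrays. The difference was 0.31 (SE 0.34), and without Tet1 KO replicate 3 it was -0.03. Across all 6 arrays the mean-centred values of Fos and Fosb differed by 0.125 (root mean square, log2), the second smallest distance among the 66 pairs of probe sets.

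The Jun family probe sets had unlike patterns. Jun, whose protein is the main AP-1 partner of Fos, read 11.68, 11.27 and 11.45 in WT and 11.41, 11.37 and 12.24 in Tet1 KO at probe set 1417409_at (log2). Tet1 KO replicate 3 was the highest array by 0.56, and the other Tet1 KO arrays lay within the WT range. Its difference was 0.20 (SE 0.27) over all arrays and -0.08 without Tet1 KO replicate 3.

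The other Jun probe set, 1448694_at, read 10.05, 10.13 and 9.86 in WT and 10.02, 8.76 and 10.50 in Tet1 KO (log2). Here Tet1 KO replicate 2 was the lowest array by 1.09, which probe set 1417409_at did not show. The 2 probe sets, annotated from the same transcript, therefore differed in sign, and the difference of -0.25 (SE 0.43) at this probe set became 0.25 without Tet1 KO replicate 2.

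Jund, a Jun protein that is present in many resting cells, read 11.92, 11.66 and 11.90 in WT and 11.68, 11.71 and 12.54 in Tet1 KO at probe set 1449117_at (log2). Again Tet1 KO replicate 3 was highest, by 0.61, and the other Tet1 KO values fell within the WT range. The difference was 0.15 (SE 0.26), or -0.13 without that array. This profile and that of Jun probe set 1417409_at were the closest of the 66 pairs, at a distance of 0.0706. The other Jund probe set, 1440265_at, lay between 5.25 and 5.65 on all 6 arrays, with a difference of 0.10 (SE 0.17).

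Junb (1415899_at), whose protein often opposes Jun and is known as a brake on myeloid expansion, was the only one of the 12 at which the genotypes lay apart. It read 6.05, 5.56 and 5.62 in WT and 6.10, 6.68 and 6.24 in Tet1 KO (log2). Every Tet1 KO array lay above every WT array, although WT replicate 1 and Tet1 KO replicate 1 were almost equal. The means were 5.74 ± 0.27 and 6.34 ± 0.30 (SD, n = 3 each), a 1.51-fold difference in intensity, or 0.59 on the log2 scale with a 95% interval from 0.06 to 1.13. The unadjusted limma p was 0.0347 and the adjusted p 0.686, so Junb did not pass. Its difference stayed between 0.42 and 0.75 when any 1 array was left out, where its sign could not change because the groups did not overlap.

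Egr1 (1417065_at), a zinc finger factor and direct SRF target, had the largest difference of the 12 and the largest range. It read 10.46, 9.79 and 9.02 in WT and 10.12, 10.17 and 10.98 in Tet1 KO (log2). WT alone spread over more than the distance between both means, which were 9.76 ± 0.72 and 10.42 ± 0.48 (SD, n = 3 each). The difference of 0.66 had a 95% interval from -0.31 to 1.64 and a limma adjusted p of 0.686. It was 0.30 with WT replicate 3 left out, 0.39 with Tet1 KO replicate 3 left out and 1.02 with WT replicate 1 left out.

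Ier2 (1416442_at), a nuclear immediate early protein, read 7.68, 7.89 and 7.62 in WT and 7.60, 8.31 and 8.39 in Tet1 KO (log2). Tet1 KO replicates 2 and 3 lay above every WT array, and Tet1 KO replicate 1 was the lowest of the 6. The difference was 0.37 (SE 0.24), with a 95% interval from -0.21 to 0.95, and leaving out 1 array took it as low as 0.23, when that was Tet1 KO replicate 3, and as high as 0.62, when it was Tet1 KO replicate 1.

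Among the feedback genes, Dusp1 (1448830_at) encodes a phosphatase that switches off MAP kinases. It read 11.33, 11.17 and 11.20 in WT, an SD of 0.08, and 11.19, 10.68 and 12.13 in Tet1 KO, an SD of 0.73 (log2). Tet1 KO held both the highest and the lowest array, so the mean difference of 0.10 (SE 0.36) hid values on either side of WT, and without Tet1 KO replicate 3 it was -0.29.

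Nr4a1 (1416505_at), an orphan nuclear receptor, read 5.62, 5.86 and 4.74 in WT and 4.26, 5.77 and 5.80 in Tet1 KO (log2). One array of each genotype was low, WT replicate 3 and Tet1 KO replicate 1, and the latter lay below the brightest bacterial control of its array. The difference of -0.13 (SE 0.49) became 0.38 when Tet1 KO replicate 1 was left out and 0.10 when WT replicate 2 was. Atf3 (1449363_at), a stress-induced repressor of the ATF family, lay between 3.19 and 4.20 and below the brightest bacterial control on all 6 arrays, so its difference of -0.09 (SE 0.31) was between values at background. That difference was 0.11, 0.07 and 0.01 without Tet1 KO replicate 3, WT replicate 2 and Tet1 KO replicate 1.

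The array that held the highest value was shared by most of these probe sets. Tet1 KO replicate 3 was highest at 8 of the 12, Fos, Fosb, both Jun probe sets, Jund at 1449117_at, Egr1, Ier2 and Dusp1, and at 17.4% of all probe sets. WT replicate 3 was lowest at 3 of the 12 and at 12.7% of all, and both held together for Fos, Fosb and Egr1, against 2.65% of all. These shares describe 1 array each, noticed in these data, and no test was made of them.

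Because both arrays are the Xist-low ones, the genotypes were also compared within each Xist state. This split was chosen after those arrays had been seen to hold extremes of these genes. A larger difference in Xist-low arrays therefore follows in part from that choice. In the Xist-high arrays, 2 against 2, 4 of the 12 probe sets were higher in Tet1 KO and 8 lower, with a median of -0.08, against 0.07 over all probe sets. In the Xist-low arrays, 1 against 1, 11 of 12 were higher, with a median of 0.78, against 0.02 over all probe sets, and this has no replicate check. Fos differed by -0.07 (SE 0.21) in Xist-high and by 1.46 in Xist-low arrays. Egr1 differed by 0.02 (SE 0.30) and 1.96. Fosb differed by -0.25 (SE 0.21) and 1.42, and Dusp1 by -0.31 (SE 0.26) and 0.93. Junb differed by 0.58 (SE 0.32) and 0.62, and the standard error of that gap, 0.55, is too wide to tell whether the states differ.

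As an interaction term in limma, the gap between the Xist states passed adjustment at 0 of the 12 probe sets, with a lowest adjusted p of 0.993, and at 0 of all 45037. At an unadjusted p under 0.05 the difference was larger in Xist-low arrays at 4 of the 12, Fos, Fosb, Egr1 and Dusp1, and at 2.54% of all. The term rests on 1 array per genotype and was added after those arrays had been seen to hold the extremes of these genes, so it restates the values above and is no independent support for them. With 1 array per genotype, the Xist state and any other feature of those samples cannot be told apart.

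**Figure D2:**
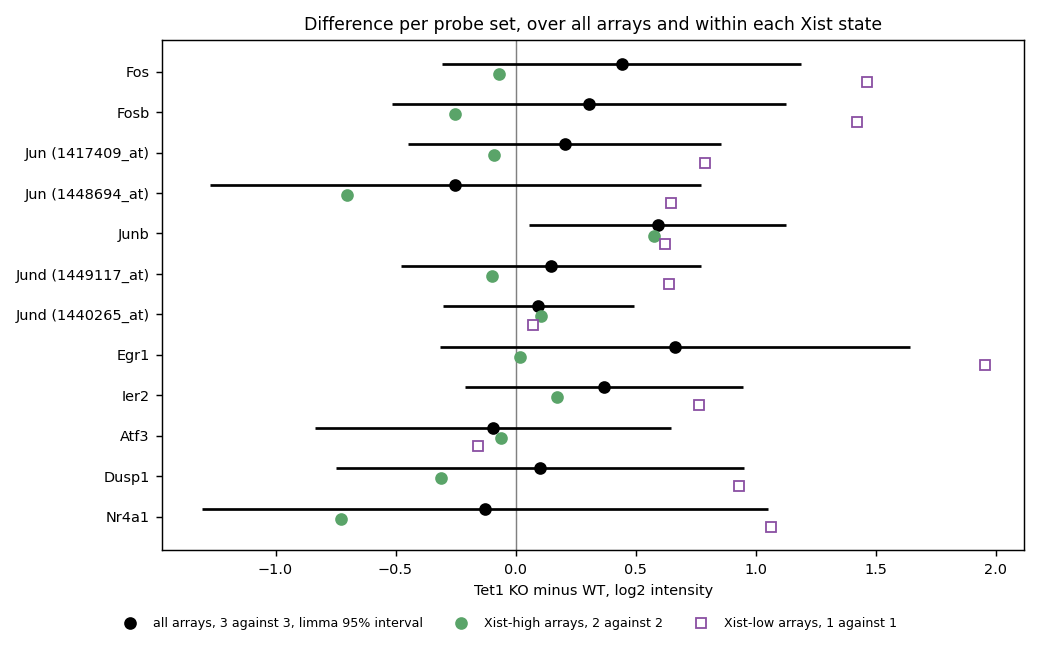
Tet1 KO minus WT difference in log2 intensity for each probe set, over all arrays with its limma 95% interval (black), in the Xist-high arrays (green) and in the Xist-low arrays (open squares, 1 array against 1). Fos, Fosb and Egr1 lie near or below 0 in the Xist-high arrays and at 1.42 to 1.96 in the Xist-low arrays, while the 3 values of Junb lie between 0.58 and 0.62.

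Among other immediate early genes, of 100 probe sets of 50 measured genes, 66 were higher in Tet1 KO and 34 lower, with a median of 0.14 (log2), which was 0.019 without Tet1 KO replicate 3. At an unadjusted p under 0.05 there were 4 higher and 1 lower of the 100, against 3.23% and 3.58% of all probe sets, and 0 passed adjustment in limma. Tet1 KO replicate 3 was the highest array at 37 of the 100, and WT replicate 3 was also the lowest at 11 of them, in Dusp2, Dusp5, Dusp6, Klf2, Klf4, Klf6, Mcl1, Nfkbiz and Sik1. On Tet1 KO replicate 3 their median deviation from WT was 0.28, against 0.68 for the 12 probe sets above and 0.03 over all probe sets.

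By smallest p, the named genes of this list were Hbegf, Cxcl2, Nr4a3 and Dusp6. Hbegf, a ligand of the EGF receptor, read 5.50, 5.46 and 5.03 in WT and 4.28, 4.42 and 4.97 in Tet1 KO (log2), with no WT array as low as any Tet1 KO one, and differed by -0.78 (SE 0.24). It was thus lower where most of the list was higher, with a limma adjusted p of 0.686. Averaged with its other probe set, which differed by -0.18, Hbegf differed by -0.48. At the brightest probe set the difference was -1.13 in Xist-high and -0.06 in Xist-low arrays. Tet1 KO replicates 1 and 2 lay under the brightest bacterial control of their arrays, 4.37 and 4.87, so the size of this difference is not exact. Dusp6, a phosphatase that acts on ERK, read 8.85, 9.03 and 8.77 in WT and 8.90, 9.35 and 9.71 in Tet1 KO, which put the genotypes 0.44 apart (SE 0.23), or 0.24 without Tet1 KO replicate 3. Nr4a3, a relative of Nr4a1, differed by 0.39 (SE 0.19). The chemokine gene Cxcl2 differed by 0.60 (SE 0.23) but lay between 2.45 and 3.63, under the bacterial control level.

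Of 49 probe sets of 20 other AP-1 dimer partners, 20 were higher in Tet1 KO and 29 lower, with a median of -0.09. None passed adjustment in limma. The unadjusted p was under 0.05 for 1 higher and 2 lower of the 49, against 3.23% and 3.58% of all probe sets. Batf, a small bZIP protein that pairs with Jun proteins and lacks an activation domain, read 7.76, 7.93 and 7.48 in WT and 7.34, 6.82 and 6.80 in Tet1 KO (log2). No WT array was as low as any Tet1 KO array, and the difference was -0.73 (SE 0.22), with an unadjusted limma p of 0.0123 and an adjusted p of 0.686. Batf differed by -0.76 in Xist-high arrays and by -0.68 in Xist-low arrays, the latter 1 array against 1. Because the groups did not overlap, a negative sign within each Xist state was fixed in advance. Batf was also named for having the smallest p of its list. Jdp2, which pairs with Jun and represses AP-1 sites, differed by -0.53 (SE 0.28), and by -0.34 to -0.81 with 1 array left out. Batf2 differed by -0.28 (SE 0.23), and by -0.05 without WT replicate 2. Maf differed by 0.40 (SE 0.21) at its brightest probe set and by 0.03 when its 6 probe sets were averaged.

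Upstream kinases and factors had 37 of 82 probe sets higher and 45 lower, with a median of -0.06 and 0 past adjustment in limma. Of the 82, 1 higher and 2 lower ones had an unadjusted p under 0.05, against 3.23% and 3.58% of all probe sets. Map2k6, a kinase that activates p38, read 6.59, 5.94 and 6.27 in WT and 5.30, 4.86 and 5.44 in Tet1 KO (log2). The groups did not overlap, Tet1 KO replicate 2 lay just under the brightest bacterial control of its array, and the difference was -1.06 (SE 0.24), with an unadjusted limma p of 0.0034 and an adjusted p of 0.686. Braf, a kinase of the ERK cascade, differed by -0.61 (SE 0.24) at its brightest probe set and by 0.18 when its 9 probe sets were averaged. Mapk7, which encodes ERK5, differed by 0.32 (SE 0.15), and the JNK kinase gene Map2k4 by 0.33 (SE 0.18).

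Heat shock genes, which also respond to the handling of cells, had 15 of 36 probe sets higher and 21 lower, with a median of -0.04 and 0 past adjustment in limma. The unadjusted p was under 0.05 for 1 higher and 0 lower of the 36, against 3.23% and 3.58% of all probe sets. Hspa1b, an inducible Hsp70 gene, read 3.03, 3.79 and 4.82 in WT and 5.17, 4.38 and 4.90 in Tet1 KO (log2), differing by 0.94 (SE 0.46). Its near-identical copy Hspa1a differed by 0.62 (SE 0.37), and probes may not separate the 2 genes. The WT means of both, 3.88 and 4.07, lay under the background of 4.39, so the sizes are not exact, and without WT replicate 1 they were 0.51 and 0.28. Tet1 KO replicate 3 was the highest array at 12 of the 36 heat shock probe sets (33.3%), 26 of the 82 upstream ones (31.7%) and 10 of the 49 dimer partner ones (20.4%). Hspb1 differed by 0.27 (SE 0.19) and Hspa5 by 0.18 (SE 0.16). With Tet1 KO replicate 2 left out, the medians of the dimer partner, upstream and heat shock lists were 0.034, 0.059 and 0.027, all of the opposite sign.

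**Figure D3:**
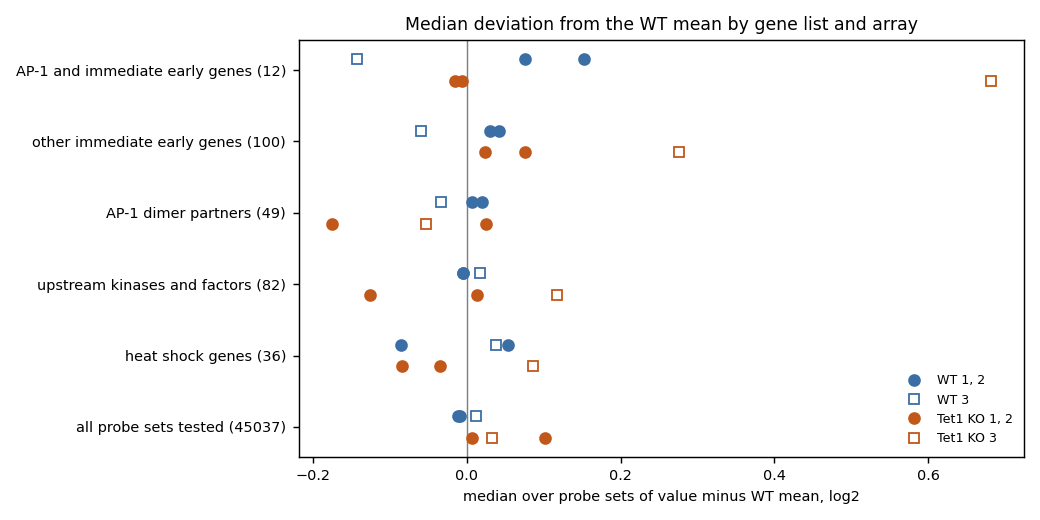
Median over the probe sets of each list of the value minus the WT mean (log2), 1 point per array, with the number of probe sets in brackets and replicate 3 of each genotype as open squares. Tet1 KO replicate 3 stands at 0.68 for the AP-1 and immediate early genes and at 0.28 for other immediate early genes, against 0.03 over all probe sets tested.

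Among markers of other cell types, Tet1 KO replicate 3 was the highest array at 1 of 23 monocyte and macrophage probe sets, 2 of 10 neutrophil, 3 of 12 B cell, 0 of 13 T and NK cell, 3 of 8 erythroid and 4 of 24 stromal and endothelial ones. The mean level of the monocyte and macrophage list ran from 4.25 to 4.64 in WT and from 4.54 to 4.87 in Tet1 KO, with 12 of its 23 probe sets below the background of 4.39 in WT and Tet1 KO alike. The neutrophil list ran from 5.18 to 5.98 and from 5.56 to 6.18, with 2 of 10 under that level. The B cell list ran from 4.24 to 4.38 and from 4.37 to 4.48, the T and NK cell list from 3.46 to 3.56 and from 3.52 to 3.95, the erythroid list from 4.73 to 4.87 and from 4.37 to 4.90, and the stromal list from 3.80 to 3.97 and from 3.98 to 4.09. Of the latter 4 lists, 6 of 12, 10 of 13, 4 of 8 and 16 of 24 probe sets lay under the background in both genotypes.

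Most of these lists were on average higher in Tet1 KO, where the 12 probe sets of the immediate early genes had a median of 0.18. The median difference was 0.21 for T and NK cell markers, with 12 of 13 probe sets higher, and 0.054 without Tet1 KO replicate 2. It was 0.28 for neutrophil markers, with 6 of 10 higher, and -0.019 without WT replicate 2. It was 0.14 for stromal and endothelial markers, with 19 of 24 higher, 0.10 for B cell markers, with 8 of 12 higher, 0.09 for monocyte and macrophage markers, with 16 of 23 higher, and -0.10 for erythroid markers, with 3 of 8 higher. After quantile normalization the B cell and stromal medians were -0.002 and 0.051, and after cyclic loess -0.041 and 0.016. The 12 probe sets had 0.20 and 0.27. On Tet1 KO replicate 2 the median deviation from WT was 0.41 for T and NK cell, 0.36 for neutrophil and 0.22 for stromal markers. On Tet1 KO replicate 3 it was 0.03, -0.08 and 0.04, against 0.68 for the 12 probe sets. Erythroid markers went the other way, at 0.03 and 0.13. The part of these lists in the immediate early values was not tested.

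The genes most like Fos over the 6 arrays, among 19413 probe sets above the median level, were Pde7a, Cep41, 1700094D03Rik, Pafah1b1 and Sbf2. Their mean-centred values lay 0.0473, 0.0970, 0.112, 0.135 and 0.145 from those of Fos (root mean square, log2). The median probe set lay at 0.541 and a flat profile at 0.428. These genes were picked as the nearest of all those probe sets on 6 values, so small distances follow from that choice. Whether they vary with Fos was not tested. Pde7a, a cyclic AMP phosphodiesterase, read 7.55, 7.50 and 6.79 in WT and 7.70, 7.42 and 8.24 in Tet1 KO.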

How the data were processed

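RNA of 3 WT and 3 Tet1 KO LSK samples was measured on Affymetrix arrays from 125 ng of total RNA each, per the labels' protocols. The deposited table held log2 intensities of 45101 probe sets, a scale read from the values (1.5 to 14.6); the authors' background correction, normalization and summarization are not given in the sources used here. Array medians differed by 0.0694, so values were used as deposited. Groups and replicate numbers came from the sample titles. Probe sets were named from the platform annotation, by which 34958 had 1 symbol, 932 several and 9211 none, and 64 controls were left out of the fit.

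Tet1 KO was compared with WT over 45037 probe sets in limma 3.58.1 under R 4.3.3 (lmFit, eBayes, genotype as the only term, two-sided, Benjamini-Hochberg over all probe sets). The fit was run on simulated data with planted differences larger than that of any member probe set, so this run does not speak to differences of their size. Number of arrays limits the precision. Members and gene lists were chosen with earlier results of these data known. All member probe sets are named, with the 4 genes of smallest p from each related list, at the brightest probe set, and the 5 genes nearest to Fos in mean-centred values. The 11 probe sets of other immediate early genes highest on Tet1 KO replicate 3 and lowest on WT replicate 3 were picked out after their values were seen. Alternatives were 3 normalizations, filters on level, 1 value per gene, variance models, array weights, a replicate block and leaving out each array; the Xist state was added after seeing the data. The deviations of same-numbered samples from their group means did not correlate. Promoter letters came from RefSeq tables. Figures used matplotlib 3.10.9.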

Additional observations from a re-analysis of the deposited data

How the results depend on the processing

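In limma with Benjamini-Hochberg adjustment, 0 of the 12 probe sets passed under each of the 19 alternatives, with a lowest adjusted p of 0.466, and 0 passed over all probe sets except with an intensity trend, with or without robust estimation, when 1 passed, 1450192_at, which has no symbol in the annotation. Of the 222 differences recomputed, 205 kept their direction and 17 did not. Filters on level, the brightest probe set per gene, variance models, a replicate block and an Xist covariate leave a difference as it was. Part of the 205 was therefore fixed in advance. Junb, Egr1, Ier2 and Jund 1440265_at never turned, although Egr1 fell to 0.019 in the Xist-high arrays. For Junb, whose groups did not overlap, leaving out arrays could not turn the sign. The number of the 12 higher in Tet1 KO was 4 in the Xist-high arrays alone, a split chosen after seeing the data, and 6 to 11 when 1 array was left out. In the Xist-high arrays the differences were -0.068 for Fos, -0.25 for Fosb, -0.088 for Jun 1417409_at, -0.10 for Jund 1449117_at and -0.31 for Dusp1. With the mean of probe sets, Jun was at -0.023 and Braf at 0.18, and with array weights Jun 1448694_at was at 0.035. Leaving out 1 array gave -0.032 to 0.53 for Fosb, -0.079 to 0.36 for Jun 1417409_at, -0.62 to 0.25 for Jun 1448694_at, -0.13 to 0.30 for Jund 1449117_at, -0.40 to 0.11 for Atf3, -0.29 to 0.43 for Dusp1 and -0.46 to 0.38 for Nr4a1. The cause was not tested, beyond the fewer arrays or other probe sets used. Of the 12, 1 had an unadjusted p under 0.05, and this count was 0 with array weights, an intensity trend, in the Xist-high arrays, and without WT replicate 2 or 3 or Tet1 KO replicate 2 or 3, and 2 without WT replicate 1 or Tet1 KO replicate 1. Over all probe sets that count was 3065, and 1311 to 4627 under the alternatives.

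The replicate numbers mark no shared source in the labels, and the deviations of same-numbered samples correlated at 0.0127, -0.00632 and 0.000539. With the replicate block, 0 of the 12 passed adjustment and 0 had an unadjusted p under 0.05, and 9 were higher in Tet1 KO. Atf3, with both means under the bacterial control level, cannot show a difference at this signal.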
